A study of Homo sapiens with 18 samples.

Results

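The regions described here were 399 gained binding sites of the EHMT1 double mutant that lay inside exons of protein-coding genes, away from gene starts. They were selected on the peak calls themselves. A K450RK451R V5 peak on chromosomes 1 to 22 and X was called gained when it shared no base with any peak of the other 3 V5 lists (WT, K450R and K451R) or the 4 H3K9me2 lists, and this held for 13494 of 14594 peaks (92.5%). Of these, 399 (2.96%, 95% Wilson interval 2.68 to 3.26) had the summit over 1 kb from every protein-coding gene start and inside an annotated exon of such a gene. The other gained sites were in introns (5768), within 1 kb of a gene start (715) or outside protein-coding genes (6612).

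LNCaP cells are a human prostate cancer line that responds to androgen. The authors made 4 stable LNCaP lines that carried a doxycycline-inducible, V5-tagged EHMT1 construct, with WT sequence or with K450R, K451R or both exchanges, and induced them at 0.5 µg/ml for 2 days. V5 and H3K9me2 ChIP-seq was performed on all 4 lines and endogenous EHMT1 ChIP-seq on parental LNCaP cells without doxycycline. The 18 labelled samples formed 9 groups of 2 replicates, each with 1 peak list, so no value had a replicate error. The labels name no removal of the cells' own EHMT1.

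EHMT1, also called GLP, is a histone methyltransferase that places mono- and dimethyl marks on lysine 9 of histone H3, a mark of silenced chromatin, usually together with EHMT2. Exons hold the coding sequence, which is flanked in the mRNA by the 5′ UTR before it and the 3′ UTR after it. The 3′ UTR is mostly in the last exon, and long last exons often contain old insertions of mobile repeats. The most abundant of these in primates, Alu, descends from 7SL RNA, the RNA of the signal recognition particle.

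Part of the sequence under the summits fell into 3 recurring kinds, described here because the exon parts differ in them. Of all members, 205 (51.4%) had none of these and held a unique stretch of 51 bases, with 77.2% in coding sequence, 81.4% in 5′ UTR, 20.0% in 3′ UTR and 25% in transcripts without a coding sequence. The first was likeness to 7SL RNA, found in the summit windows (the summit and 100 bases to either side) of 136 members (34.1%, 29.6 to 38.9). The alignments of 133 of these spanned the same 30 bases of the RN7SL2 transcript. Among the strongest members of this kind, the RPGR and ZNF595 sites were in 3′ UTRs, as was that of DYRK1A, and the BAZ2B and TAF15 sites were in exons of transcripts without a coding sequence.

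The second kind was a tandem repeat, taken as at least 0.6 of the bases of a window being equal to the base 1 period further on. It was found at 21 members with periods of 24 to 77 bases. At SPRR3, which codes for a proline-rich protein of the cornified envelope of skin, neighbouring 24-base units of the coding sequence met at the summit, and 21 of 24 bases were equal (capitals). At TF, the gene of the iron carrier transferrin, the unit was 49 bases long in the 3′ UTR.
SPRR3 unit (chr1:152975780-152975803, plus): AGCCAGGtTgtACCAAGGTCCCTG
SPRR3 next unit (chr1:152975804-152975827, plus): AGCCAGGcTacACCAAGGTCCCTG

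The third kind was a string of the RE1 type, the element read by the neuronal-gene repressor REST, searched as AGCACC, any 2 bases and GGACAG on both strands with up to 2 mismatches. It was found at 21 members (5.26%, against 2.70% of all exon tiles, windows of the same length centred 1 window length apart along exon bases over 1 kb from gene starts). The 5 shown are members that also carried an endogenous EHMT1 peak, with capitals for the bases equal to the searched letters.
DNAJC6 (chr1:65775600-65775620, plus): gccAGCACCatGGACAGctca
CELSR3 (chr3:48699379-48699399, minus): cggAGCAgaaaGGACAGcccc
LHFPL5 (chr6:35773072-35773092, minus): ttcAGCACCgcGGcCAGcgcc
NEUROD1 (chr2:182542877-182542897, minus): tacgGtACCatGGACAGctcc
AGAP2/OS9 (chr12:58121224-58121244, plus): gtcAGCACCagGGtCAGctcc
The DNAJC6 string had no mismatch, LHFPL5 and AGAP2/OS9 had 1, and CELSR3 and NEUROD1 had 2. In the order shown, the middle of the stretch lay 7, 73, 35, 26 and 5 bases from the V5 summit. A match is a description of the letters and not a bound site.

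The summit was in coding sequence of at least 1 transcript at 149 members (37.3%, 32.7 to 42.2), in a 3′ UTR at 115 (28.8%, 24.6 to 33.5), in a 5′ UTR at 59 (14.8%, 11.6 to 18.6) and only in transcripts without a coding sequence at 76 (19.0%, 15.5 to 23.2). A summit that met several parts was counted in coding sequence before 5′ UTR and 3′ UTR. Counted as UTR first, the coding share was 28.8%, so the order of coding sequence and 3′ UTR rests on this choice. All exon bases over 1 kb from gene starts came to 99.1 Mb, and coding sequence made up 32.9% of them, 3′ UTR 41.3%, 5′ UTR 4.48% and transcripts without a coding sequence 21.4%. The 3′ UTR share of the members was below its share of the bases and the 5′ UTR share above it. Per megabase there were 4.57 members in coding sequence, 2.81 in 3′ UTR, 13.3 in 5′ UTR and 3.59 in transcripts without a coding sequence. Over all exon parts the density was 4.02 per megabase, beside 4.89 in introns. Outside protein-coding genes it was 3.84 per megabase. There all chromosome positions were counted, unsequenced gaps of the assembly included, so this value is too low to rank against that of exons.

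**Figure D1:**
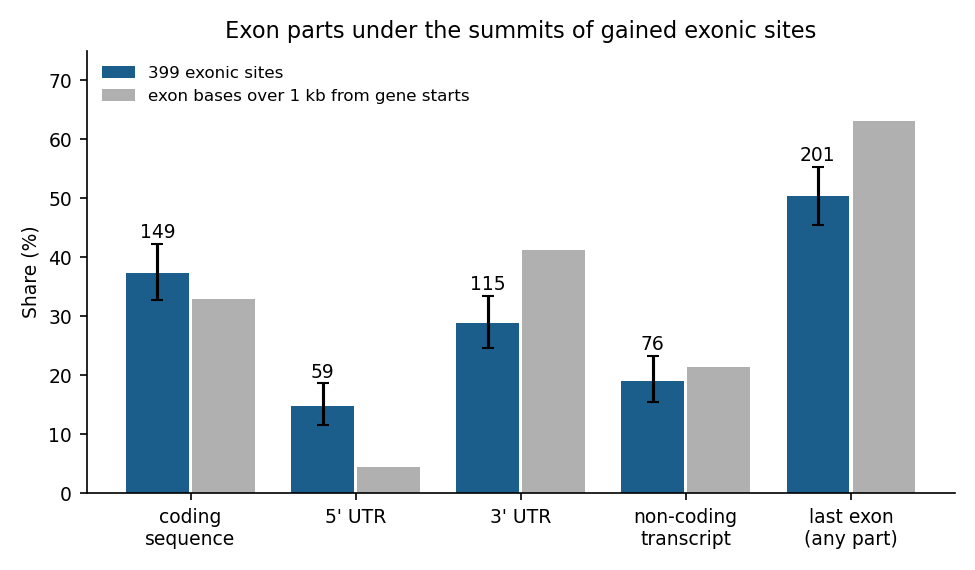
Share (%) of the 399 exonic sites with the summit in each exon part (blue, with 95% Wilson intervals and the number of sites above) and of the exon bases over 1 kb from gene starts (grey). 5′ UTR held 14.8% of sites and 4.48% of bases, 3′ UTR 28.8% and 41.3%, and last exons, which overlap the other parts, 50.4% and 63.0%.

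Last exons held 50.4% of the members (45.5 to 55.3) and 63.0% of the bases, where a summit counted when it was in the last exon of any transcript. First exons held 122 of the others and inner exons 76. Of the 149 coding members, 59 were in last, 38 in first and 52 in inner exons. Among the 115 sites in 3′ UTR, 109 were in a last exon.

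The annotation behind the label was uneven. An exon of the gene's canonical transcript held 236 members (59.1%, 54.3 to 63.9, beside 65.1% of exon bases), of which 135 were in its coding sequence, 85 in its 3′ UTR and 16 in its 5′ UTR. The remaining 163 members were in exons of other transcripts only. For 93 members none of these transcripts was of the protein-coding type, and for 45 all were annotated as retaining an intron. Gene starts were the outermost annotated starts, and 152 members (38.1%, 33.5 to 43.0, beside 26.2% of exon bases) were within 1 kb of the start of some transcript of a protein-coding gene. This held for 55 of 59 members in 5′ UTR, 55 of 149 in coding sequence, 32 of 76 in transcripts without a coding sequence and 10 of 115 in 3′ UTR. Of the bases, 76.9% in 5′ UTR, 28.0% in coding sequence, 51.1% in transcripts without a coding sequence and 6.27% in 3′ UTR were as near to a transcript start. The share of members was above that of bases in 5′ UTR (93.2%, 83.8 to 97.3) and in coding sequence (36.9%, 29.6 to 44.9). In transcripts without a coding sequence (42.1%, 31.6 to 53.3) and in 3′ UTR (8.70%, 4.79 to 15.3) the interval held the share of bases.

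The members were weak peaks, and in this they were like the other gained sites. Fold enrichment, the pileup of fragments at the summit over the local background with 1 added to each, was 4.84 in the median (2.99 to 9.24), and −log10 q of the peak caller was 2.79 (1.39 to 11.6). The medians of intronic sites were 4.89 and 2.79. These values belong to the calls that chose the members and are given as a description. The whole-number pileup solved from each fold and −log10 p was 9 in the median (6 to 24), again as at intronic sites (9, 6 to 50). By exon part the median pileup was 9 in coding sequence, 5′ UTR and 3′ UTR and 8.5 in transcripts without a coding sequence. A −log10 q of 5 was reached by 28 members and one of 10 by 1.

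The other V5 lists were called at lower depth. The genome-wide background pileup was 0.84 in the K450RK451R list, 0.57 in K450R, 0.523 in K451R and 0.328 in WT. A summit of the double mutant would need a pileup of 17.95 to equal, at WT depth, the lowest pileup of the WT list, which was 7. Only 4 of 399 members reached this, namely MUC6, HRNR, USP17L11 and REXO1L1, all in coding sequence. The windows of HRNR, USP17L11 and REXO1L1 held no 51-base stretch that is unique in the genome. For the K450R list 227 members reached the corresponding 8.84, for K451R 130 reached 9.63, and 172 reached none of these values. Pileup is only 1 side of a call. MUC6, HRNR, USP17L11 and REXO1L1 had 4.71, 4.64, 4.22 and 2.99-fold enrichment over their local background, each under the member median of 4.84. The lowest −log10 p was 3.99 in the K450RK451R list and 6.57 in the WT list. For all members, also these 4, a gain of binding and the lower depth of the WT list cannot be told apart.

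**Figure D2:**
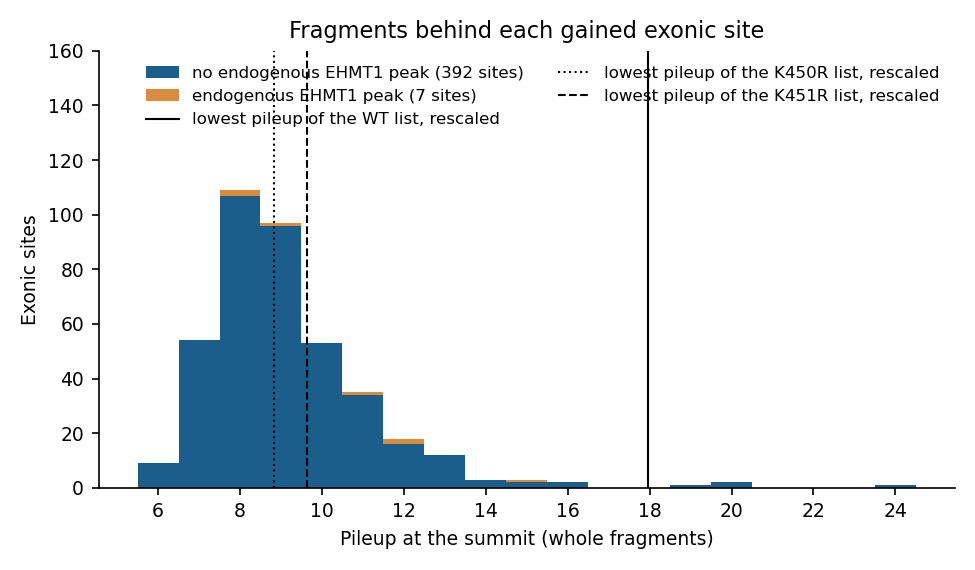
Number of exonic sites (vertical axis) by pileup at the summit (horizontal axis, whole fragments), with sites that carried an endogenous EHMT1 peak in orange. Vertical lines mark the lowest pileup of the WT (17.95), K450R (8.84) and K451R (9.63) V5 lists rescaled to the depth of the K450RK451R list. Most members sit left of the WT line, and 4 sit right of it.

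The strongest members were in genes of several kinds. The summit at RPGR, a regulator of the photoreceptor cilium, had 9.24-fold enrichment, −log10 q 11.6 and a pileup of 16, in the 3′ UTR of a transcript other than the canonical one. MS4A4E, a member of the membrane-spanning 4A family, followed with 7.73-fold and −log10 q 8.45 in its last exon. BAZ2B, a bromodomain protein of chromatin, had 7.61-fold and −log10 q 7.92. These 3 windows were a 7SL-like one, a tandem repeat and another 7SL-like one. That of MS4A4E held no 51-base stretch that is unique in the genome. ADGRV1, an adhesion receptor of sensory cells, had 7.18-fold and −log10 q 7.25 at a summit 4 bases from an internal transcript start and was the strongest in 5′ UTR. FGF12 (6.52-fold), which codes for a fibroblast growth factor homologue that binds sodium channels, and the muscarinic receptor gene CHRM3 (6.13-fold) came next in 5′ UTR, and their summits lay 8 and 86 bases from a transcript start.

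Among coding members, SRSF11, a splicing factor, was strongest with 6.74-fold and −log10 q 6.26 in exon 1 of 12, 26 bases from a transcript start. DNAJC6 (6.40-fold), the auxilin of clathrin uncoating, and SPRR3 (6.52-fold) followed. The remaining 3 of the 10 strongest were the zinc finger gene ZNF595 (5.95-fold), the kinase gene DYRK1A (6.57-fold) and TAF15, an RNA-binding protein (6.52-fold), all 7SL-like. SPRR3 and TAF15 were among 9 members with the same −log10 q of 5.65, so their place in the order is arbitrary. Of the 10 strongest, 5 were 7SL-like and 2 were tandem repeats. Ordered by pileup instead, 7 of 42 members with at least 12 were 7SL-like (16.7%, 8.32 to 30.6). Below 12 it was 129 of 357 (36.1%, 31.3 to 41.2).

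The 7SL-like share differed between the exon parts. It was 67.0% in 3′ UTR (77 of 115, 57.9 to 74.9) and 65.8% in transcripts without a coding sequence (50 of 76, 54.6 to 75.5), but 11.9% in 5′ UTR (7 of 59, 5.87 to 22.5) and 1.34% in coding sequence (2 of 149, 0.369 to 4.76). At gained sites in introns it was 64.8%, outside protein-coding genes 49.9% and near gene starts 7.55%. In all 493237 exon tiles it was 5.56%, with 7.20% in 3′ UTR and 0.585% in coding sequence. Windows 1 kb to either side of the members gave 8.77%. The share of 3′ UTR members was thus near that of intronic sites and above that of 3′ UTR tiles. Within 3′ UTR the share was 68.2% in canonical exons (57.7 to 77.2) and 63.3% in other exons (45.5 to 78.1), and these intervals overlap.

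**Figure D3:**
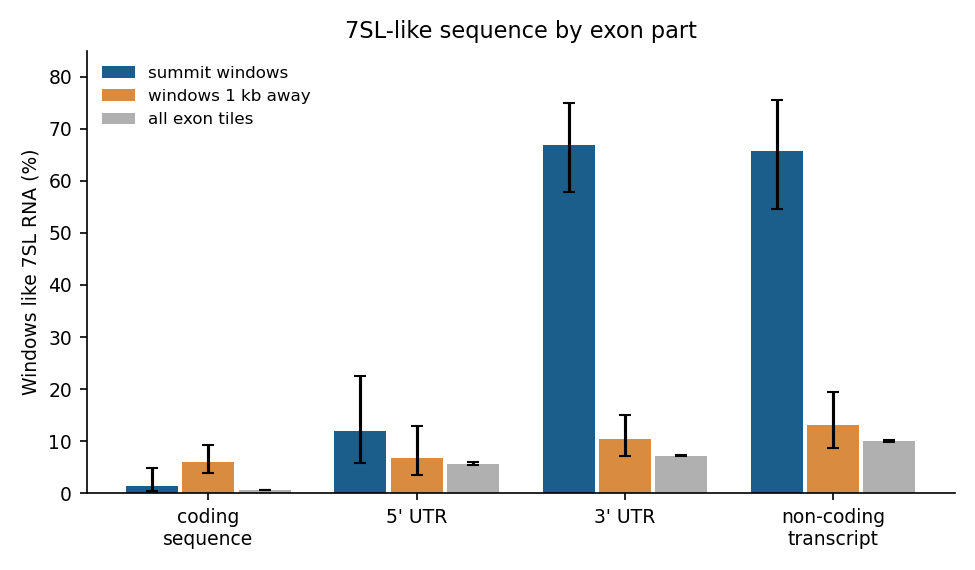
Share (%) of windows of 100 bases to either side of the centre that aligned to 7SL RNA, by exon part, at the summits (blue), 1 kb to either side (orange) and over all exon tiles (grey), with 95% Wilson intervals. Summit windows reached 67.0% in 3′ UTR and 65.8% in transcripts without a coding sequence, against 1.34% in coding sequence.

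LPP, which codes for a LIM-domain protein of focal adhesions, showed this within 1 exon. Its 16322-base last exon held 3 members within 2664 bases, all in the 3′ UTR and all 7SL-like, with 4.95, 4.55 and 4.55-fold enrichment and pileups of 9, 8 and 8. MS4A4E and PDE4DIP, a centrosome and Golgi protein also called myomegalin, were the only other genes with 3 members. The 3 MS4A4E summits lay within 558 bases of its last exon, with pileups of 14, 7 and 7, and GC contents of 72.6%, 77.1% and 67.1%. The window with the pileup of 14 held no 51-base stretch that is unique in the genome. PDE4DIP had 2 members in a 5′ UTR exon and 1 in a transcript without a coding sequence, and the last was 7SL-like. In all, 385 genes had a member, 363 of them exactly 1 and 19 of them 2.

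GC content was high at members of every part. The median over summit windows was 62.2% in coding sequence, 62.7% in 5′ UTR, 55.2% in 3′ UTR and 55.7% in transcripts without a coding sequence, while exon tiles of these parts had 49.8%, 50.7%, 40.8% and 44.3%. The GC content was higher at the summit than in the mean of the windows 1 kb away at 383 of 399 members (96.0%), by 17.4 percentage points in the median, and at 143 of 149 coding members. The ratio of observed to expected CpG had a median of 0.533 at summits and 0.239 both 1 kb away and in exon tiles. Introns gave 55.7% GC and sites near gene starts 67.7%, so the coding and 5′ UTR members lay between these.

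**Figure D4:**
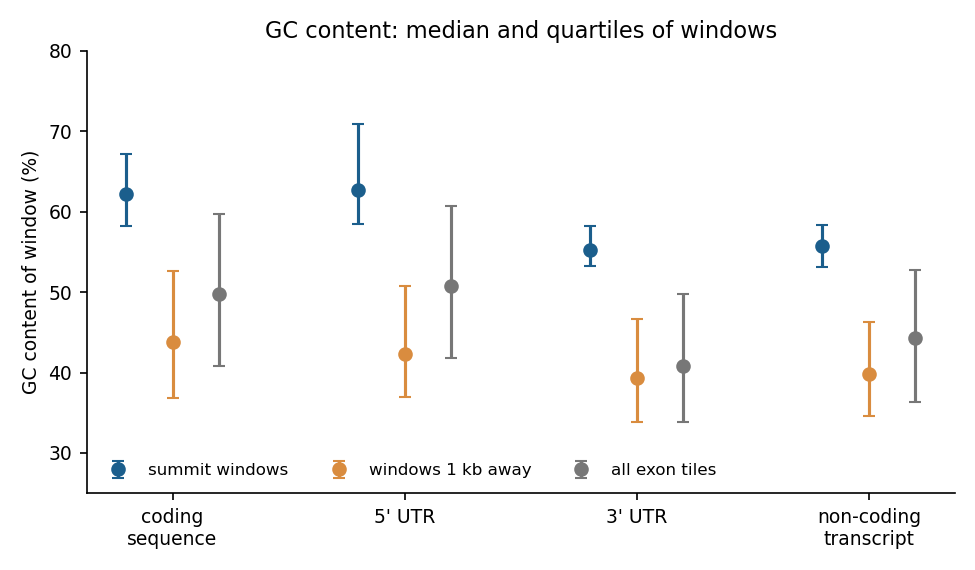
GC content (%) of windows of 100 bases to either side of the centre by exon part at the summits (blue), 1 kb to either side (orange) and over all exon tiles (grey). Points are medians and bars run from the lower to the upper quartile. The medians at the summit were 62.2%, 62.7%, 55.2% and 55.7%, each above those of its comparison windows.

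Coding members at repeats and in gene families were named by sequence measures of the window. Of the 21 tandem members 7 were coding (4.70% of 149, beside 1.68% of coding tiles), 12 were in 3′ UTR (10.4%, beside 0.321%) and 2 in transcripts without a coding sequence. None of 59 in 5′ UTR was, which allows up to 5.08%, where the limit given for a count of 0 is 3 counts of the total and not a Wilson bound. Besides SPRR3, the coding ones were HRNR and SBSN, both of skin, the salivary proline-rich protein genes PRB2 and PRB4, the myelin gene MOBP and FMN2, a formin that nucleates actin. The TF repeat aligned to 4 member windows, which were both TF sites and 2 MS4A4E sites. The share was 1.00% of the members, 4.25% of intronic gained sites and 0.0075% of exon tiles.

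Reads of 51 bases could not be placed uniquely in part of these exons. No 51-base stretch of the summit window was unique in the genome at 29 members (7.27%), beside 12.6% of intronic gained sites and 1.51% of exon tiles, and 15 of the 29 were coding. These included the olfactory receptor genes OR2A7 and OR2A42, the deubiquitinase family member USP17L11, MBD3L4, SPDYE5, the heat shock gene HSPA1B, and exons of NEB and LPA, which repeat within their genes. Among the members in 3′ UTR without a unique stretch were the strongest MS4A4E site, both TF sites and ZNF846. The pileup of all 29 may belong to any of the copies. The gene names of these sites are therefore uncertain.

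Endogenous EHMT1 was the one readout that the selection had not used. An EHMT1 peak of parental LNCaP cells overlapped 7 of 399 members (1.75%, 0.852 to 3.58), beside 1.02% of all gained sites. The share was 0.537% in introns (31 of 5768), 3.50% near gene starts (25 of 715) and 1.12% outside protein-coding genes (74 of 6612). By two-sided Fisher's exact test the exonic share was 1.22 percentage points above the intronic one (p = 0.00989, adjusted over 3 comparisons 0.0297). It did not pass Fisher's exact test against sites near gene starts (1.74 percentage points lower, difference −1.74, adjusted p = 0.20) or outside protein-coding genes (0.635 points higher, adjusted p = 0.227). The tests compared peaks of single lists and do not cover variation between replicates. The difference from introns rested on 7 sites. It did not pass the exact test without 7SL-like windows, where it was 1.14 points (adjusted p = 0.55), or when sites within 1 kb of any transcript start were set apart (0.81 points, adjusted p = 0.144). Over 14 alternatives the adjusted p of this exact test ran from 0.00618 to 1.

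**Figure D5:**
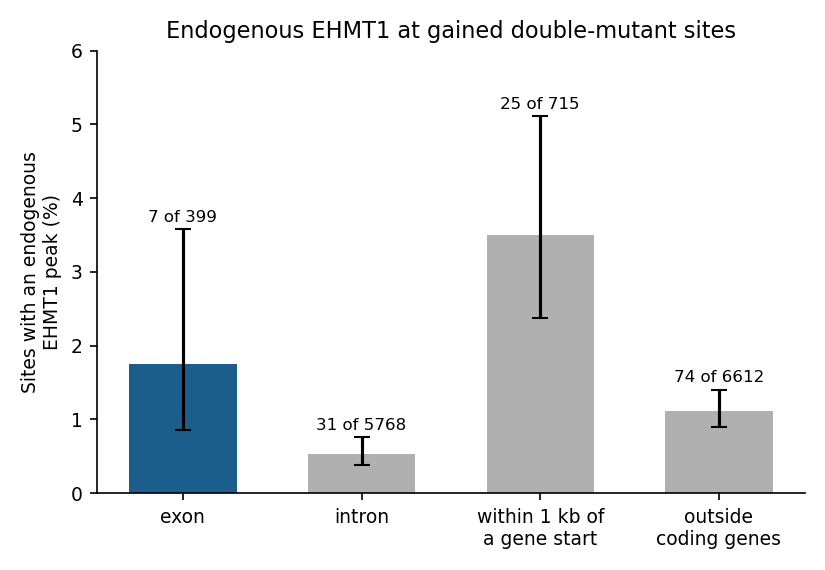
Share (%) of gained K450RK451R sites that overlapped an endogenous EHMT1 peak, by position, with 95% Wilson intervals and counts above the bars. Exonic sites had 1.75%, between introns at 0.537% and sites within 1 kb of a gene start at 3.50%, and the intervals of exonic and near-start sites overlap.

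All 7 shared members were in coding sequence (5) or 5′ UTR (2). Of the 7, 4 summits lay within 1 kb of a transcript start, beside 152 of all 399 members. These were CALB1 (1 base away), LHFPL5 (10), OPRM1 (210) and DNAJC6 (391). First exons held 5 of the 7, beside 122 of all members. None of the 115 in 3′ UTR was shared, which allows up to 2.61%, and none of the 136 7SL-like members, which allows up to 2.21%. NEUROD1, a transcription factor of neurons and endocrine cells, had the highest enrichment of the 7 in the EHMT1 list, with 11.9-fold, −log10 q 19.8 and a pileup of 24, against 5.32-fold and a pileup of 9 in the double mutant. CALB1, the gene of the calcium buffer calbindin, followed with 10.4-fold in the EHMT1 list and 4.89-fold in the V5 list. CELSR3, an atypical cadherin of axon guidance, had 8.06-fold and 4.73-fold, and its 2 summits were 1 base apart. LHFPL5, a subunit of the hair-cell mechanotransduction channel, had 8.03-fold and 5.43-fold. OPRM1, the mu opioid receptor gene, had 6.97-fold and 4.89-fold, with 104 bases between summits. The overlapping exons of AGAP2 and OS9 had 6.29-fold and 4.11-fold, and DNAJC6 had 5.47-fold and 6.40-fold. The order of the 7 thus differed between the lists, and DNAJC6, weakest in the EHMT1 list, was strongest in the double mutant.

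The RE1-type string was present at 6 of these 7, all but OPRM1, and at 15 of the 392 others. Put the other way, 6 of 21 members with the string had an EHMT1 peak (28.6%, 13.8 to 49.96) and 1 of 378 without it (0.265%, 0.0467 to 1.48). At intronic gained sites the shares were 14.9% (14 of 94) and 0.2996% (17 of 5674), and near gene starts 21.2% (11 of 52) and 2.11% (14 of 663). With at most 1 mismatch the string was at 9 members (2.26%, beside 0.227% of exon tiles). By part, the string with up to 2 mismatches was at 12 coding members, 4 in 5′ UTR and 5 in transcripts without a coding sequence. It was at none in 3′ UTR, where up to 2.61% is allowed. The tiles of these parts held it at 3.78%, 3.05%, 2.43% and 1.95%. The pattern was noticed in these data, so it is described and was not tested.

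Other short strings were rare. CACGTG, the E-box read by MYC among others, was in 15 windows (3.76%, beside 2.64% of exon tiles and 1.84% of intronic sites). TTTCCCGC or TTTGGCGC, E2F-type strings, were in 3 (0.752%, beside 0.297% of exon tiles and 0.627% of windows 1 kb away), all in coding sequence, where 0.434% of tiles had one.

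The member genes were counted against gene groups named by symbol, beside 385 of 19543 protein-coding genes with exon bases over 1 kb from starts (1.97%). The genes were counted without regard to the length of their exons. Cadherin superfamily genes had 7 of 109 (6.42%), and 6 of their 7 sites were coding. The 4 protocadherin sites among these lay within 210138 bases of chromosome 5. PCDHGA1 had 6.12-fold enrichment, CELSR3 4.73-fold, PCDHB10 5.34-fold and FAT4 4.89-fold, the last at a 7SL-like window. Mucin genes, whose glycoproteins have long repeated domains, had 3 of 17, with MUC5AC at 5.86-fold, MUC6 at 4.71-fold with a pileup of 20, and MUC3A at 3.67-fold. None of these 3 windows was a tandem repeat by the measure used, and the MUC5AC summit was in a transcript without a coding sequence. Collagen and basement membrane genes had 3 of 62, namely LAMB1 (5.98-fold), COL6A3 (4.84-fold) and COL10A1 (4.30-fold). C2H2 zinc finger genes had 11 of 606 (1.82%), and 2 of these 11 sites were coding, although their fingers are usually coded by 1 long last exon. ZNF595 (5.95-fold), ZNF846 (5.85-fold) and ZKSCAN1 (5.20-fold) had the highest −log10 q of these, followed by ZNF195, ZNF577 and ZNF471, which were equal (5.43-fold). The windows of ZNF595, ZNF846, ZKSCAN1 and ZNF195 were 7SL-like, and those of ZNF577 and ZNF471 were not. The ZNF846 window held no unique 51-base stretch, so its gene name is uncertain. ZNF195, 1 of the 2 coding sites, was not in a canonical exon.

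The other groups had few members, to be read beside the 1.97% of all protein-coding genes, and were not tested. Where a group had no member, the count is not read as an absence. Olfactory receptor genes had 4 of 256 (1.56%), with OR2A7 (5.74-fold), OR2A42 (4.44-fold), OR2F1 (4.89-fold) and OR10AC1 (4.66-fold). Solute carrier genes had 3 of 373 (0.804%), namely SLC38A9, SLC6A3 and SLC46A1, at 4.07 to 4.44-fold. Ion channel genes had 2 of 167 (1.20%), TRPC7 with 2 coding sites (5.43 and 4.89-fold) and TRPM4 (4.07-fold). Motor protein genes had DNAH14 (5.14-fold) of 100 (1%), and histone lysine methylation genes had PRDM11 (3.8-fold) of 58 (1.72%). None of 10 EHMT and LSD1 complex genes and none of 107 genes of a list of developmental factor families (HOX, LHX, PAX, SOX, IRX, NKX and DLX among them) had an exonic member. The homeobox gene POU2F1, outside these families and named after its value was seen, had 5.56-fold in its 3′ UTR.

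Among luminal prostate genes, KLK4, a secreted prostate protease gene, had 4.89-fold in its 3′ UTR at a tandem repeat with a period of 67 bases. Of the genes that the study followed, none of HTR5A, PPP1R14C, STXBP3, LIPT2, FRMPD2, MCM7 and EHMT1 had an exonic member. Of all protein-coding genes only 1.97% had one, so finding none among so few genes is not read as an absence. STXBP3 and LIPT2 had 1 gained site each near the gene start, PPP1R14C had 2 in introns and EHMT1 had 3.

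The limits of the selection cut through like values. Just inside 1 kb from a gene start were CELSR3 at 1003 bases (4.73-fold) and TAF11L12 at 1025 (6.52-fold), and just outside NPTN at 976 (5.26-fold) and THRB at 974 (4.0-fold). The summits of GLB1L3 and CIBAR1 were on the outermost exon base, and those nearest on the intron side, in ADHFE1 and CUX1, were 1 base off an exon. ITGB1BP1 and MUC6 had the nearest peaks of the 7 lists, at 74 and 300 bases, and exonic double-mutant peaks at MUC6 and INSM2 shared 100 bases with one and were left out. The lowest −log10 q of a member, 1.39, was that of ZCCHC14 and IGF2BP3.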

How the data were processed

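ChIP-seq reads (51 nt, single-end) were mapped to hg19 and peaks called by the authors. The submitters' processing notes name FastQC 0.11.9, BWA 0.7.9a, SAMtools 1.2 and MACS2 2.1.0. Each of the 9 groups had 1 deposited narrowPeak list for 2 labelled replicates, and whether these were pooled or an input control was used is not given in the sources used here. The authors' lists give, per peak, a fold enrichment (a ratio of summit pileup to background), −log10 p and −log10 q, and the deposited summit offset.

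Summits were placed in GENCODE version 44 genes lifted to GRCh37, the assembly of hg19, with coordinates 1-based. Members and gene lists were chosen with earlier results of these data known. The named genes were the 10 with the highest −log10 q, the 3 highest per exon part, those with an EHMT1 peak, genes with at least 3 sites, members next to a limit, genes the study followed, and up to 4 per gene list. MUC6, HRNR and the other genes of high pileup, repeats or multi-copy exons were named after their values were seen. Pileup and background were solved from fold and −log10 p, within 0.001, for 100% of peaks. The lists hold no depth, and the background stands for it. Sequence measures used GRCh37 windows of the summit and 100 bases to either side: blastn 2.17.0+ against RN7SL2 (word size 7, bit score at least 45), stretches of 51 bases occurring once, and periods of up to 100 bases. The bit score and repeat limits were set after seeing the data. Fisher's exact test, two-sided, was used between sets of peaks (scipy 1.17.1) with Benjamini-Hochberg adjustment over 3 comparisons. The 95% Wilson intervals cover counting error only. Scripts were tested on simulated data. The encoded protein was not analysed here. Some member sequences and 1 member gene are not reported here.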

Additional observations from a re-analysis of the deposited data

How the results depend on the processing

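No paired analysis was possible because the lists give no values per replicate (1 list a group), and leaving out a replicate was not run for that reason. Of 14 alternatives to the selection, 7 kept the 399 exonic sites within 1.5 times. There were 28 at a −log10 q of at least 5, 1 at 10, 139 at a fold of at least 5, 181 above the lowest −log10 p of the WT list, 247 when sites within 1 kb of any transcript start were left out, and 236 in canonical exons. Their share of gained peaks (2.96%) became 1.99%, 0.826%, 2.39%, 2.61%, 1.83% and 1.75% in that order, 2.62% beyond 2.5 kb from starts, 2.27% in protein-coding transcripts, 2.41% with the whole peak in the exon and 3.27% with a unique stretch. The coding share (37.3%) was 0% at a −log10 q of 10 (1 site), 47.7% in protein-coding transcripts, 57.2% in canonical exons and 28.8% when summits in both parts counted as UTR. The last-exon share (50.4%) was 67.9% and 0% at the q limits, 73.3% away from transcript starts, 57.5% with the whole peak in the exon and 30.6% for canonical last exons. Windows that were not 7SL-like, an alternative chosen after seeing the data like the bit scores of 35 and 60, left 263 sites, 4.2% of such gained peaks, with 55.9% coding and 39.2% in last exons. A bit score of 60 gave a 7SL-like share of 27.8%.

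The EHMT1 share (1.75%) fell to 0% at a −log10 q of 10. By Fisher's exact test, its excess over introns (1.22 points) no longer passed at 0.293 points (−log10 q of 5), 1.4 (fold of 5), 1.34 (−log10 p), 0.953 (2.5 kb), 0.81 (transcript starts), 0.649 (whole peak) and 1.14 (not 7SL-like), and was −25 points with the 1 site at a −log10 q of 10. The other 6 alternatives kept it past the threshold, and the difference from sites near gene starts passed under none of 14. The count of sites, the depth gap between lists and the lack of replicate values limit these comparisons.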
